A study of Mus musculus with 9 samples.

Results

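The microRNAs (miRNAs) mmu-miR-204 and mmu-miR-211, here miR-204 and miR-211, were described in mouse primary visual cortex. They were chosen by name, as every non-control spot of the arrays assigned to either of them, and make up 2 of the 611 mouse miRNA names on the array. All 9 arrays held RNA of C57BL6 mice taken at postnatal day 28. The control group (n = 3) was raised under a normal light cycle, the dark-reared group (n = 3) was kept without light from birth, and the monocularly deprived group (n = 3) had 1 eyelid sutured at postnatal day 24. In the monocularly deprived group only the cortex opposite the sutured eye was used. Nothing in the labels says whether a replicate was 1 animal, a pool or a second portion of the same RNA, so the spread behind each p-value may be technical rather than between animals. By the array headers, slide 1 and scan 1 held both the control and the dark-reared arrays, while slide 2 and scan 2 held those of the monocularly deprived group alone. For the monocularly deprived group, slide and treatment cannot be told apart.

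A miRNA is cut from a hairpin precursor and guides Argonaute proteins to messenger RNAs, mainly by pairing of its seed, the bases near its 5′ end. Both miRNAs are intronic: miR-204 is carried by the gene of the cation channel Trpm3, and miR-211 by that of Trpm1. They are known for their abundance in the retinal pigment epithelium, miR-204 also for the choroid plexus, the epithelium that makes cerebrospinal fluid, and miR-211 for pigment cells.

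The mature sequences are shown because a single base separates the members. They are RefSeq's (GRCm38.p6), written 5′ to 3′, with the seed (bases 2 to 8) in capitals.
miR-204: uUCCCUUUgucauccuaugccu
miR-211: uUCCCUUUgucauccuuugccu
The 2 sequences shared the seed and differed at 1 of 22 bases, A17U, counted from the 5′ end of miR-204. The same seed was found in 3 of 1679 mature mouse sequences of RefSeq, the third being miR-7670-3p.

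The hairpins are shown with the mature 5′ arm in capitals, since outside that arm the precursors are different genes on different chromosomes. Mir204 lay at chr19:22750605-22750672 on the plus strand, inside Trpm3 (chr19:22137797-22995410). Mir211 lay at chr7:64205806-64205911 on the plus strand, inside Trpm1 (chr7:64153835-64269772).
Mir204: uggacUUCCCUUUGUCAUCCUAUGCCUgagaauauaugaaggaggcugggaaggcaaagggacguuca
Mir211: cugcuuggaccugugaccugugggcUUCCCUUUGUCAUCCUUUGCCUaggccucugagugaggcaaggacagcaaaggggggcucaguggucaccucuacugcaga

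The array measured miR-204 with 2 probes of 10 spots each and miR-211 with 4 probes of 5 spots each. The probe sequences are printed from the scanner files, because their lengths matter for the results and because paired probes of the members differ at 1 base, in capitals. Each starts opposite the 3′ end of the miRNA, and longer probes reach further into the seed.
miR-204 probe of 20 bases: aggcaTaggatgacaaaggg
miR-204 probe of 19 bases: aggcaTaggatgacaaagg
miR-211 probe of 19 bases: aggcaAaggatgacaaagg
miR-211 probe of 20 bases: aggcaAaggatgacaaaggg
miR-211 probe of 21 bases: aggcaAaggatgacaaaggga
miR-211 probe of 22 bases: aggcaAaggatgacaaagggaa
At equal length, the probes of the members differed by T6A, counted from the probe's 5′ end. How much of one miRNA binds the other's probes was not tested.

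The labelled tissue was checked against miRNAs of cortical neurons. All 5 markers (miR-124, miR-9, miR-128, miR-138 and miR-129-3p) were detected on all 9 arrays, and 0 of 3 photoreceptor markers (miR-96, miR-182 and miR-183) were detected on any array. On the log2 scale, miR-124, the leading neuronal miRNA, differed from control by 0.02 in dark-reared and -0.004 in monocularly deprived samples, neither called by limma. miR-9, a miRNA of neural progenitors and neurons, differed by -0.13 in dark-reared samples (limma adjusted p = 0.614) and fell by 0.50 in monocularly deprived samples (limma adjusted p = 0.00223). The miR-9 call was lost without scaling (-0.74, limma adjusted p = 0.396), with normexp background correction (-0.38, 0.591) and with scaling to the 75th percentile of all miRNA probes, detected or not (0.05, 0.812). With that last scaling, miR-124 was called higher in monocularly deprived samples (0.55, limma adjusted p = 0.0194). The arrays detected 297 to 359 of the 611 mouse miRNA names each, and 267 names were detected on all 9 arrays. The arrays' 75th percentile of signal, by which levels were scaled, was 401 to 1022 intensity units.

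miR-204 was detected on 9 of 9 arrays, and miR-211 on 4 of 9. Of the 611 mouse miRNA names, 267 were detected on all 9 arrays. Detection is the scanner software's call that the signal of at least 1 probe exceeded 3 times its error. For miR-204, all 85 spots of the 19-base probe and all 88 spots of the 20-base probe that were in use stood well above background, and 0 were saturated. Spots of the 20-base probe varied by 2.05% to 9.39% (coefficient of variation) within an array.

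Before scaling, the processed signal of miR-204, averaged over its probes, was 671, 342 and 485 intensity units on control replicates 1, 2 and 3. It was 649.8, 448 and 627 on the dark-reared replicates and 470.0, 529.9 and 461 on the monocularly deprived replicates. The 3 groups overlapped on this scale.

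Divided by each array's 75th percentile and put on the log2 scale, the miR-204 level was -0.61, -0.52 and -0.67 in controls, a mean of -0.60 ± 0.07 (SD, n = 3). It was -0.28, 0.16 and -0.30 in the dark-reared samples, a mean of -0.14 ± 0.26 (SD, n = 3). In the monocularly deprived samples it was -0.41, -0.28 and -0.38, a mean of -0.35 ± 0.07 (SD, n = 3). All 6 deprived samples thus lay above all 3 controls, while the deprived groups overlapped each other. Dark-reared replicate 2 stood apart from the other dark-reared samples: it had the lowest signal of its group before scaling, the lowest 75th percentile of all arrays, and the highest level after scaling.

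**Figure D1:**
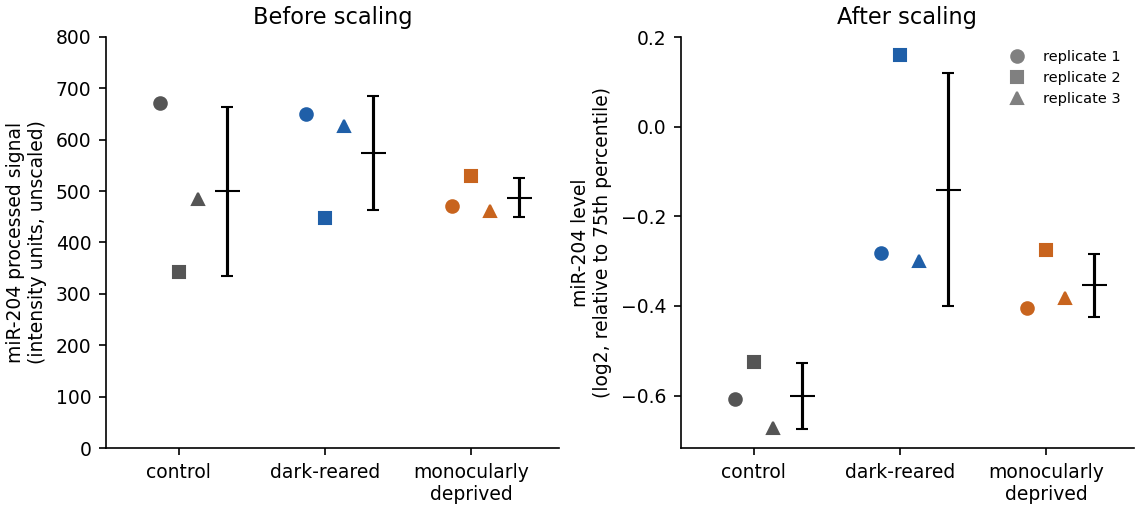
miR-204 on each array by group (x axis), as processed signal before scaling (left, intensity units) and as level after scaling (right, log2 of that signal over the array's 75th percentile), with points for the 3 samples of a group and the group mean ± SD. After scaling, the controls lie between -0.67 and -0.52, below all samples of both deprived groups, and dark-reared replicate 2 is the highest at 0.16.

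The miR-204 level was 0.46 higher in dark-reared than in control samples on the log2 scale (SE 0.13, 95% interval 0.17 to 0.76), or 1.38-fold. The difference did not pass the threshold in limma's test over the 318 tested miRNAs (limma adjusted p = 0.24). Of those 318, 0.629% were called in this comparison at an adjusted p under 0.05. The groups did not overlap, and 10.7% of tested miRNAs were likewise higher without overlap. An exact two-sided permutation test gave p = 0.1 (0.15 after adjustment over the 3 comparisons of miR-204), the smallest value that 3 against 3 samples allow. Same-numbered samples, which lay in the same column of slide 1, differed by 0.33, 0.68 and 0.37. Without dark-reared replicate 2 the difference was 0.31, and without scaling between arrays it was 0.24. In these bulk samples, more cells of a type and more RNA per cell cannot be told apart.

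Monocularly deprived samples had a miR-204 level 0.25 above control samples on the log2 scale (SE 0.13, 95% interval -0.05 to 0.54), or 1.19-fold, which did not pass the threshold (limma adjusted p = 0.171). In this comparison, 33% of the tested miRNAs were called, and 28.6% were higher without overlap, as miR-204 was. The exact two-sided permutation p was again 0.1 (0.15 adjusted). Without dark-reared replicate 2, which enters only through the shared estimate of the spread, the same difference was called (limma adjusted p = 0.0421). Scaling to the 75th percentile of all miRNA probes, detected or not, gave 0.80 (limma adjusted p = 0.0051), where the median of all tested miRNAs also moved, to 0.62. Without scaling the difference was 0.01.

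Between the deprived groups, monocularly deprived minus dark-reared was -0.21 on the log2 scale (SE 0.13, 95% interval -0.51 to 0.08, limma adjusted p = 0.244). Of the tested miRNAs, 28.6% were called in this comparison. The exact two-sided permutation p was 0.3. The difference was -0.06 without dark-reared replicate 2, and with scaling over all miRNA probes it turned to 0.47 (limma adjusted p = 0.0485), where the median of all tested miRNAs was 0.70. The order of the group means was therefore dark-reared, monocularly deprived, control, in which the first neighbours overlapped. No neighbouring groups differed past the threshold.

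The 2 probes of miR-204 gave differences of the same sign for dark rearing and of opposite sign for monocular deprivation. The 20-base probe, opposite miRNA bases 3 to 22, had a scaled log2 signal of 0.06 ± 0.07 in controls, 0.54 ± 0.27 in dark-reared and 0.38 ± 0.08 in monocularly deprived samples (SD, n = 3 each). The 19-base probe, opposite bases 4 to 22, had -1.87 ± 0.09, -1.47 ± 0.23 and -1.94 ± 0.02 in the same order (SD, n = 3 each). With the 20-base probe alone the log2 difference from control was 0.48 in dark-reared (limma adjusted p = 0.242) and 0.32 in monocularly deprived samples (limma adjusted p = 0.0939).

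With the 19-base probe alone, dark-reared samples were 0.40 above control, and monocularly deprived samples differed from control by -0.07 (limma adjusted p = 0.733). The difference between the deprived groups was then -0.47 (SE 0.11) and was called (limma adjusted p = 0.0217). Taking the shortest probe alone was an alternative added after the data were seen. The sign of the miR-204 difference after monocular deprivation therefore depended on which probe was read, and for dark rearing it did not. Neither probe's difference from control was called. After monocular deprivation, that of the 19-base probe was smaller than its SE of 0.11.

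**Figure D2:**
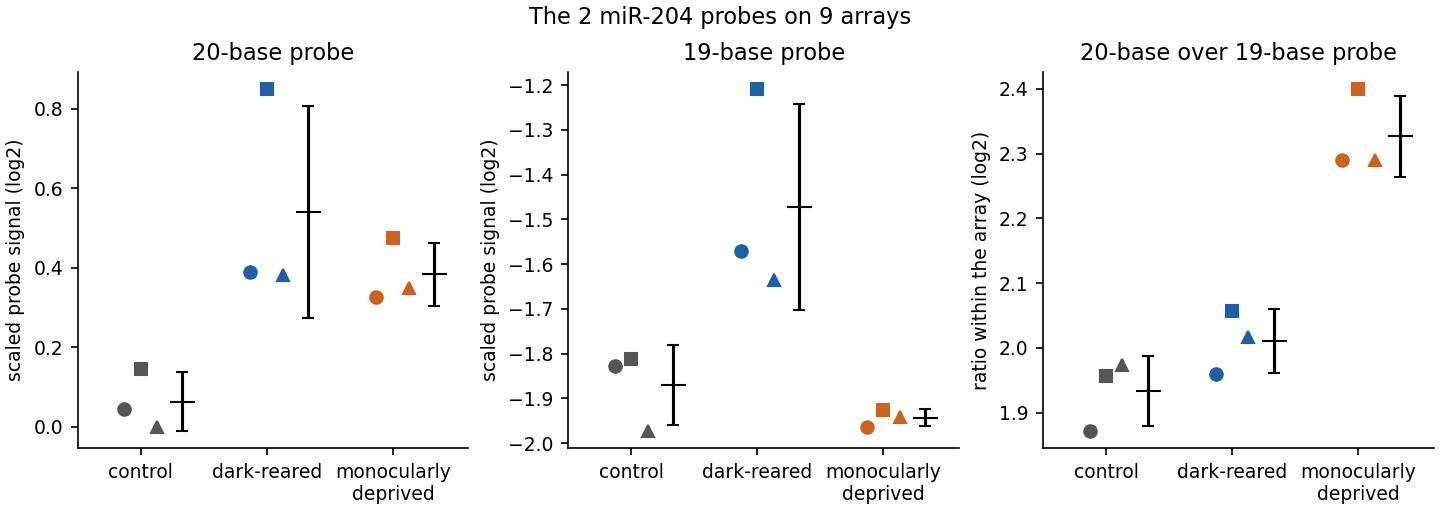
Scaled log2 signal of the 20-base and 19-base miR-204 probes (y axis, first panels) and the log2 ratio of the 20-base to the 19-base probe within an array (y axis, last panel) on the 9 arrays by group (x axis), with 1 point per array and the group mean ± SD. On the 20-base probe the monocularly deprived mean is 0.38 against 0.06 in controls, and on the 19-base probe it is -1.94 against -1.87.

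Read as a ratio within each array, the 20-base signal was 3.66, 3.88 and 3.93 times the 19-base signal in controls and 3.89, 4.16 and 4.05 times in dark-reared samples. It was 4.89, 5.28 and 4.89 times in monocularly deprived samples, above all 6 arrays of slide 1. On the log2 scale the ratio was 0.35 higher on slide 2 (exact two-sided permutation p = 0.0238, not adjusted, the smallest value that 3 against 6 arrays allow). With 1 slide on each side, that p-value does not measure the spread between slides. Against control the ratio was 0.39 higher in monocularly deprived samples (exact two-sided p = 0.1, 0.15 adjusted over 3 comparisons) and 0.08 higher in dark-reared samples (exact two-sided p = 0.2).

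The same ratio of longest to shortest probe was taken for all 185 mouse miRNAs, miR-204 among them, that had probes of different length standing well above background on every array. It was higher on slide 2 in 161 of 185, by a median of 0.10 on the log2 scale (10th to 90th percentile -0.01 to 0.39). In 45.9% of them the ratio was higher on slide 2 without overlap, as for miR-204. A shift at least as large as that of miR-204 was seen in 25 of 185 (13.5%). The median shift between dark-reared and control arrays, which shared slide 1, was 0.04. The part of the slide in the miR-204 difference was not tested, since no other group was on slide 2.

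**Figure D3:**
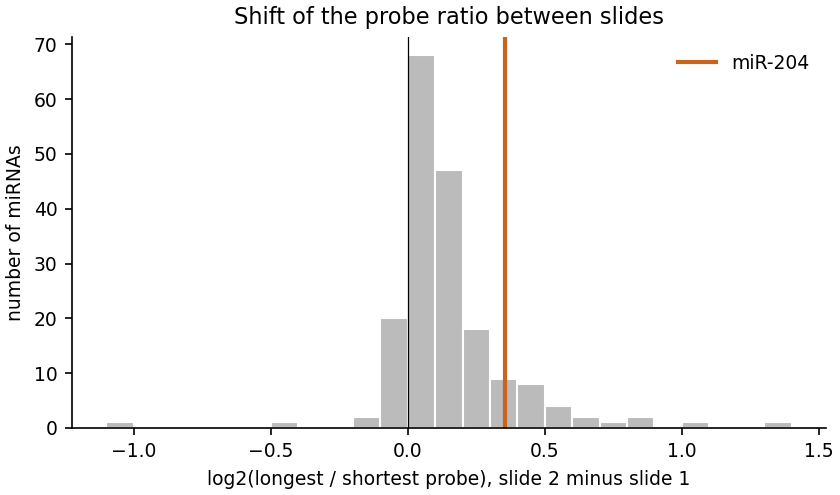
Distribution over 185 miRNAs of the log2 shift in the ratio of the longest to the shortest probe between slide 2 and slide 1 (x axis) against the number of miRNAs (y axis), with miR-204 marked. Most shifts lie above 0 (161 of 185, median 0.10), and miR-204 at 0.35 lies in the upper part.

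miR-211 was detected on control replicate 3, dark-reared replicates 1 and 3 and monocularly deprived replicate 1. It was not tested, because no group had it detected on all 3 arrays. Its total signal over probes was 13.7 ± 4.39, 4.38 ± 2.01 and 9.77 ± 2.31 intensity units on the controls, where ± is the scanner software's error of 1 array. It was 21.9 ± 4.16, 6.87 ± 2.11 and 10.9 ± 1.68 on the dark-reared arrays, and 6.44 ± 1.59, 6.67 ± 2.21 and 5.26 ± 1.92 on the monocularly deprived arrays. On these unscaled totals the controls spanned the range of the monocularly deprived samples and overlapped the dark-reared ones. All monocularly deprived totals lay below all dark-reared totals, but the closest pair, 6.67 and 6.87, was within its errors. No share over all miRNAs was counted for these totals. Scaled as for miR-204, the log2 level was -6.60, -7.25 and -6.74 in controls, -5.58, -6.30 and -6.57 in dark-reared and -7.05, -7.04 and -7.27 in monocularly deprived samples. On that scale the dark-reared levels lay above all the others, with the closest pair at -6.57 and -6.60, nearer to each other than the samples of either group. Of the tested miRNAs, 10.7% were likewise higher in dark-reared than in control samples without overlap. No such share was counted against the monocularly deprived samples, which lay on the other slide. No fold is given for values this close to background.

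The 3 arrays with the highest total signal of miR-204, control replicate 1 and dark-reared replicates 1 and 3, were also the 3 highest for miR-211. These total signals were not scaled between arrays. Control replicate 1 was not called for miR-211, and its error of 4.39 was the largest of the 9 arrays.

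The 4 miR-211 probes were read 1 by 1, most of them not above 3 times their error. The 19-base probe gave -0.915 to 8.15 intensity units over the 9 arrays, with 5 arrays below 0, and exceeded 3 times its error on 0 arrays. The 20-base probe gave 1.74 to 17.6, over 3 times its error on 0 arrays, and the 21-base probe 3.36 to 18.8, over it on 1. The 22-base probe, which alone covers the whole miRNA, gave 6.29 to 21.6 and exceeded 3 times its error on 4 arrays, those on which miR-211 was detected.

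Negative control spots gave a background for these probes. Their 95th percentile, taken over single spots, was 1.49 to 7.90 intensity units per array, whereas a probe's mean was over 4 or 5 spots. The mean of the 22-base probe exceeded that percentile on 9 of 9 arrays, the 20-base and 21-base probes on 6 each, and the 19-base probe on 2. On monocularly deprived replicate 3 the mean of the 22-base probe was 8.23 against 7.90, with 2 of 5 spots above. By a stricter reading, with most spots of a probe well above background, miR-211 was detected on 1 array, dark-reared replicate 3. The 22-base probe measured 16.6, 6.29 and 14.5 units on the controls, 21.6, 9.08 and 14.9 on the dark-reared arrays and 8.43, 8.04 and 8.23 on the monocularly deprived arrays.

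**Figure D4:**
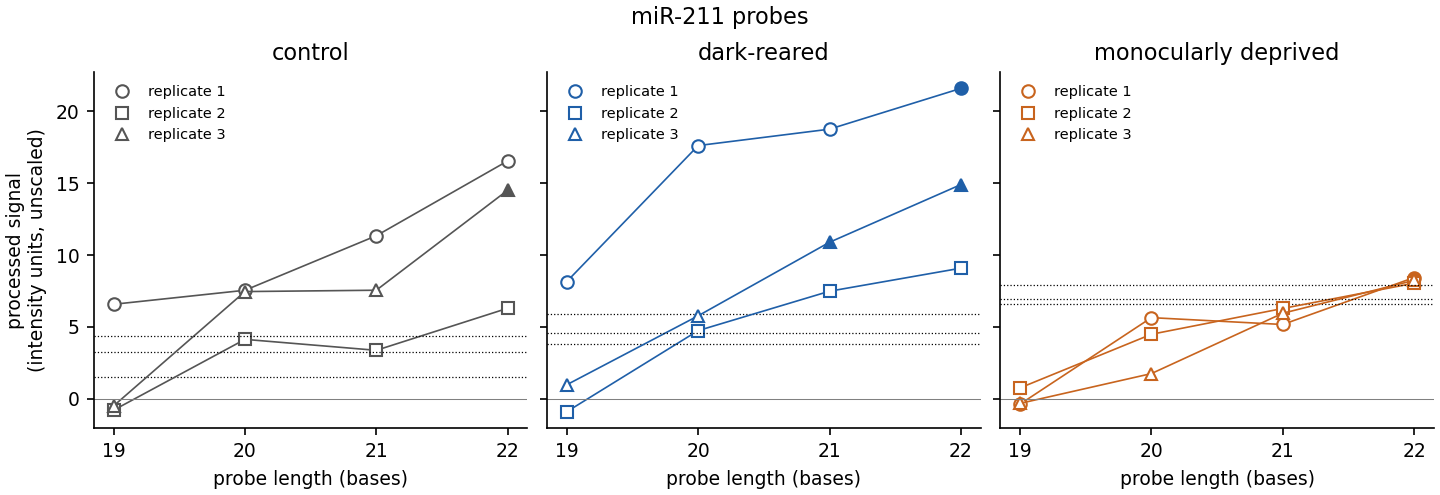
Mean processed signal of the 4 miR-211 probes (y axis, intensity units) by probe length (x axis, bases) on each of the 9 arrays, with a dotted line at the 95th percentile of that array's negative control spots. The 22-base probe lies above the line on all 9 arrays and the 19-base probe on 2.

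miR-204 and miR-211 were set beside other miRNAs of epithelia, the choroid plexus and the retinal pigment epithelium, a list of 14 that includes both. Of these, 6 were tested: miR-204, miR-31, miR-203 of skin and other epithelia, and miR-200a, miR-200b and miR-429, which lie in 1 gene cluster and are known to restrain the change of epithelial into mesenchymal cells. The other 8 were miR-211, miR-184 and miR-449a, detected on 4, 2 and 2 arrays, and miR-141, miR-200c, miR-205, miR-449b and miR-449c, detected on 0 of 9 arrays.

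Between dark-reared and control samples, 5 of the 6 tested had a log2 difference above 0. Among them were miR-204 itself and the clustered miR-200a, miR-200b and miR-429. How many of all 318 tested miRNAs lay above 0 was not counted. The list median was 0.48 against 0.05 over all tested miRNAs, of which at least as many lay above 0 as below. This list was chosen with earlier results of these data known and holds miR-204. Its counts and medians are therefore no separate evidence on miR-204 in any comparison. Of the 6, 1 was called higher. The same miRNA was the only one called higher among all 318 tested (0.314%). It was miR-200b, at -5.42, -5.11 and -5.26 in controls and -4.58, -4.48 and -4.46 in dark-reared samples on the scaled log2 scale. The groups did not overlap, and the difference was 0.76 (SE 0.13, limma adjusted p = 0.045). With the replicate block the limma adjusted p was 0.0543, and the call held in 2 of 9 fits without 1 array, those without monocularly deprived replicate 2 or 3. With normexp background correction the difference was 0.11 (limma adjusted p = 1.00), or 0.36 without the spots of bright background (0.882), and the call was also lost without scaling (0.53, 0.974) and with quantile normalization (0.60, 0.205). The difference was 0.66 for miR-429 (limma adjusted p = 0.0682), 0.50 for miR-200a (0.331), 0.34 for miR-203 (0.507) and -0.09 for miR-31 (0.843).

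Between monocularly deprived and control samples, 2 of the 6 were called higher, against 15.7% of all tested, with a list median of 0.34 against 0.08. They were miR-200b (0.49, limma adjusted p = 0.0187) and miR-429 (0.48, limma adjusted p = 0.0216). Between the deprived groups, 1 of 6 was called lower in monocularly deprived samples, against 18.9% of all tested: miR-203, by -0.61 (limma adjusted p = 0.0144). Normexp background correction turned both differences from control, to -0.53 for miR-200b and -0.54 for miR-429, and without 9 spots of bright background, an alternative added after the data were seen, it gave 0.27 and 0.26, none of these called. Quantile normalization gave 0.93 for each (limma adjusted p = 0.00445 and 0.00602), and without scaling they were 0.26 and 0.25 and not called. The miR-203 difference turned to 0.08 with quantile normalization and to 0.07 with scaling over all miRNA probes, and was -0.72 without a call with normexp. Without 1 array, the calls held in 8 of 9, 7 of 9 and 8 of 9 fits. These comparisons share samples, so their members' values are not independent of each other.

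Without miR-204, the scaled signal of the 5 other tested members summed to 0.188 to 0.205 in controls, 0.231 to 0.242 in dark-reared and 0.202 to 0.236 in monocularly deprived samples. The dark-reared sums did not overlap the controls, and the monocularly deprived sums overlapped both. miR-31, the highest of the 5, was not higher in dark-reared samples (mean log2 level -3.35, against -3.26 in controls). The sum over the 5 neuronal markers was 72.6 to 73.6 in controls, 69.99 to 70.5 in dark-reared and 59.2 to 84.0 in monocularly deprived samples. Here too the dark-reared sums did not overlap the controls, lying below them. No share over all miRNAs was counted for such sums. The part of these epithelial markers in the miR-204 differences was not tested.

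**Figure D5:**
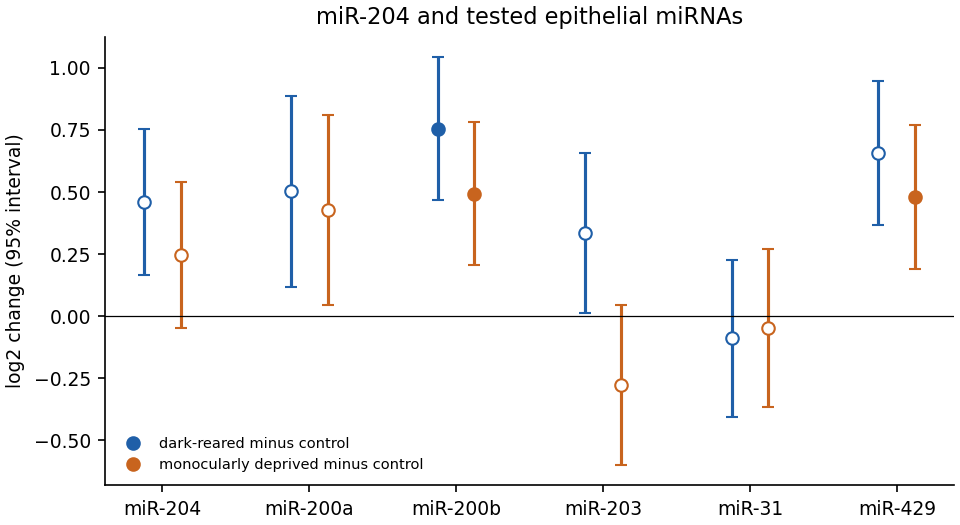
Log2 difference from control (y axis, with 95% intervals of limma) of miR-204 and the 5 other tested epithelial miRNAs (x axis) in dark-reared and monocularly deprived samples. miR-204 lies at 0.46 and 0.25, miR-200b at 0.76 and 0.49, and miR-31 below 0 in both.

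The miRNAs whose profile over the 9 arrays lay closest to that of miR-204 were found by the root mean square difference of log2 levels, each centred on its own mean. Out of 317, the nearest were miR-497 (0.0762), miR-195 (0.098), miR-192 (0.142), miR-194 (0.149) and miR-26b (0.155), against a median of 0.296 over all. miR-497 and miR-195 come from 1 cluster and share a seed, which differs from that of miR-204. On miR-497 the centred likeness included dark-reared replicate 2, which at 0.57 lay above the other dark-reared levels of 0.00 and -0.02, as for miR-204. All 5 were highest on that array, the one with the lowest 75th percentile. They were picked for likeness to miR-204, which was highest there too, so this was largely fixed beforehand. None of the 5 was called in any comparison, with limma adjusted p from 0.126 (miR-192, monocularly deprived minus control) upward.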

How the data were processed

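RNA of 9 samples (100 ng each, per the labels) was hybridised to 1-colour Agilent mouse miRNA arrays at 64 °C. The deposited intensity values (processed signal) came from Agilent Feature Extraction 10.1.1.1, per the file headers, with background subtracted and no scaling between arrays. The authors' series matrix held the same intensity values at 100% of spots, within a relative difference of 1e-05. The number of arrays limits precision.

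Outlier spots (367 to 638 per array) were left out. Signal was averaged over spots, then over probes, and divided by the array's 75th percentile of 433 probes, those that stood well above background on every array. Values were floored at 0.00422 and put on the log2 scale. On control replicate 3, the 20-base miR-204 probe was itself the probe at that percentile, and leaving the member probes out was tried as an added alternative. A mouse miRNA was tested where some group had it detected on all its arrays (318 miRNAs). The fit of 3 group means used limma 3.58.1 (R 4.3.3), with 6 residual and 2.21 prior degrees of freedom. Benjamini-Hochberg adjustment ran over the 318 in each comparison, with the threshold at 0.05. The script was tested on simulated data. Single values were compared by exact permutation tests in scipy 1.17.1.

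Named miRNAs were both members, the tested epithelial list, miR-124, miR-9 and the 5 profiles nearest to miR-204. The members and lists were chosen with earlier results of these data known. Deviations from the group mean went together in control and dark-reared arrays of the same number (r = 0.887, 0.324 and 0.815 across miRNAs). Such arrays share a column of slide 1. Control replicate 2 went more closely with dark-reared replicate 3 (r = 0.615) than with dark-reared replicate 2. The numbers thus pair the arrays by column, and by these correlations for replicates 1 and 3 only. Numbers of monocularly deprived arrays do not pair them with controls (r = -0.359, -0.259 and 0.213) or with dark-reared arrays (r = -0.385, -0.274 and 0.137). Alternatives changed the scaling, background, probes, filter, floor, block and arrays used.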

Additional observations from a re-analysis of the deposited data

How the results depend on the processing

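The miR-204 difference between dark-reared and control samples was above 0 and not called under all 27 alternatives, from 0.24 to 0.54 (limma adjusted p 0.137 to 1.00). Alternatives in filter, floor or block, and those without an array of the group not compared, could not move the miR-204 difference, only its p-value. The same holds for comparing groups alone and for letting limma's spread follow intensity. The series matrix held the same intensity values and could change nothing. The exact permutation test kept the difference too and could not pass the threshold with 3 against 3 samples. Monocularly deprived minus control was above 0 under 25 of 26 and called under 2. It was 0.80 with the 75th percentile of all miRNA probes and, with the shortest probe alone, -0.073. Leaving out 1 array gave 0.21 to 0.29, and the call without dark-reared replicate 2 came from a smaller shared spread. Monocularly deprived minus dark-reared was below 0 under 25 of 26 and called under 2. It was 0.47 with the 75th percentile of all miRNA probes, -0.24 relative to that setting's median, and -0.47 with the shortest probe alone. Relative to the median of all tested miRNAs, the dark-reared difference was 0.41 under each of the 4 scalings, monocularly deprived minus control 0.05 to 0.18 and monocularly deprived minus dark-reared -0.33 to -0.24. Apart from quantile normalization, these scalings differ only by a constant factor for each array. Subtracting the median removes that factor, so their agreement was largely fixed beforehand. With the replicate block the 3 differences were 0.46, 0.25 and -0.21 (limma adjusted p 0.184, 0.111 and 0.163), and no call changed. Leaving the member probes out of the percentile changed no call. Normexp background correction moved the median of all tested miRNAs to -0.42 and -0.39 in the comparisons with the monocularly deprived group, and relative to it miR-204 stood at 0.56 against control and 0.18 against dark-reared. Without the 9 spots of bright background those medians were 0.12 and 0.01, and miR-204 stood at 0.11 and -0.20. miR-211 was detected on 4 arrays by the scanner software and on 1 where most spots of a probe had to stand well above background. Without the detection filter its 3 comparisons were not called (limma adjusted p 0.772, 0.82 and 0.0917), and its other alternatives gave no value. Over all tested miRNAs, limma called 0 to 4 between dark-reared and control across alternatives (2 as reported, 28 at an unadjusted p under 0.05), 2 to 234 between monocularly deprived and control (105 as reported), and 1 to 247 between the deprived groups (91 as reported). The signal of miR-211 near background limits what can be said of its change.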
